A study of Homo sapiens with 9 samples.

Results

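Heterozygous CHD7 mutant cells were compared with both other genotypes at once, to find genes whose heterozygous level left the order set by the number of intact CHD7 copies. The comparison used 9 of the 9 libraries of the series, chosen by genotype label alone: for each gene, the heterozygous level was set against the midpoint of the wild-type and homozygous levels on the log2 scale. All libraries were RNA sequencing of definitive endoderm derived in vitro from H9, an established human embryonic stem cell line, in which CHD7 had been deleted with CRISPR/Cas9. The groups were wild-type cells (CHD7+/+), heterozygous mutant cells (CHD7+/-) and homozygous mutant cells (CHD7-/-), with 3 libraries each. The labels give neither the deleted interval nor the number of clones behind a genotype, and they name no separate cultures, so p-values reflect only how far these libraries vary, a variation that may be technical. If a genotype is 1 clone, differences between genotypes and between clones cannot be told apart.

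CHD7 encodes an ATP-dependent chromatin remodeller that slides nucleosomes at enhancers and promoters, and loss of a single copy in people causes CHARGE syndrome, a disorder of many organs. Definitive endoderm is the germ layer that gives rise to the lining of gut and airways and to liver and pancreas. Where a gene rises or falls steadily with the dose of a regulator, heterozygous cells lie between the other genotypes. A level above or below both of them is outside that order on any scale, whereas a level between them can be above or below their midpoint depending on the scale.

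The libraries held 11854173 to 37519729 counts, homozygous replicate 1 being the shallowest, and levels are given as CPM, the counts scaled to library size. Markers of definitive endoderm were present in every library: the summed level of 10 markers, among them SOX17, FOXA2 and CXCR4, was 11510 to 12330 CPM in wild-type, 9682 to 10650 CPM in heterozygous and 7908 to 8985 CPM in homozygous cells. CER1, a secreted Nodal antagonist, made up most of that sum, at 7007 to 7706, 5465 to 6784 and 3942 to 4986 CPM, while CXCR4 overlapped between all 3 genotypes (588.4 to 682.8, 537.2 to 613.8 and 564.1 to 626.9 CPM). Markers of undifferentiated stem cells were also present, with all 6 detected. Their summed level was 289.8 to 356 CPM in wild-type, 401 to 499 CPM in heterozygous and 286 to 391 CPM in homozygous cells, so the 3 heterozygous libraries were above the other 6. POU5F1 and DPPA4 made up most of that sum. Heterozygous replicate 3 was above all wild-type and homozygous libraries for DPPA4 and ZFP42, but not for POU5F1, NANOG, SOX2 or PRDM14. In bulk samples fewer cells of a type and less RNA per cell cannot be told apart. Of the other marker sets, mesoderm summed to 21.1 to 64.3 CPM, neural crest to 21.9 to 31.1 CPM, trophoblast and amnion to 9.92 to 31.2 CPM, visceral endoderm to 4.66 to 8.41 CPM and neuroectoderm to 0.297 to 1.05 CPM. No marker with a row in the table was at 0 in all libraries.

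CHD7 itself kept the order of the genotypes in every library. Its level was 195, 195 and 189.2 CPM in wild-type, 110.4, 130.5 and 129 CPM in heterozygous and 56.1, 43.0 and 55.5 CPM in homozygous libraries. The 3 genotypes did not overlap. Heterozygous cells lay above the log2 midpoint by 0.31 (SE 0.09, adjusted p = 0.209), which did not pass the test, and the ratio of their mean to the arithmetic mean of the other genotypes was 0.01 on the log2 scale, close to a straight line by copy number. All adjusted p-values are from edgeR's quasi-likelihood test with Benjamini-Hochberg adjustment over 16837 tested genes, and a gene is called below 0.05.

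Few genes were called against the midpoint. Of 16837 tested genes, 103 were called (0.612%), 63 of them higher (0.374%) and 40 lower (0.238%) in heterozygous cells, and 2043 (12.1%) had an unadjusted p below 0.05. The median over all tested genes was 0.00 on the log2 scale, with 51.1% of genes above 0. Among the 103 called genes, 40 were not called between homozygous and wild-type cells. The difference was over 2-fold for 44 of the higher and 28 of the lower genes.

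Heterozygous cells left the order altogether for 39 of the 103 genes. They were called below both other genotypes for 26 of the 40 lower genes (0.154% of all tested genes) and above both for 13 of the 63 higher genes (0.0772%). Both tests of such a gene share the heterozygous libraries. Among all tested genes, the 3 heterozygous libraries lay above the other 6 for 368 (2.19%) and below them for 298 (1.77%), 666 in all (3.96%). Among called genes this held for 33 of the 63 higher and 32 of the 40 lower genes. The test chose those genes on the same values, so nothing is read from these shares. Of the 63 higher genes, 24 differed from wild type alone and 23 from homozygous cells alone. The corresponding numbers of lower genes were 9 and 5. Heterozygous cells differed from wild type at 310 genes (1.84%) and from homozygous cells at 376 (2.23%).

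The counts depended on single libraries. Without heterozygous replicate 2, 60 genes were called, 33 of them higher, and 5 lay above both other genotypes. The number above both was also 5 when wild-type replicate 2 was left out, 7 when wild-type replicate 3 or heterozygous replicate 1 was, and 8 when homozygous replicate 2 was. The number of genes below both ranged only from 18 to 27 over the 9 fits that left out 1 library. Of the 103 genes, 60 were called against the midpoint in all 9 of those fits. So were 29 of the 39 genes outside both genotypes. How many of these 29 stayed outside both in every fit was not counted.

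**Figure D1:**
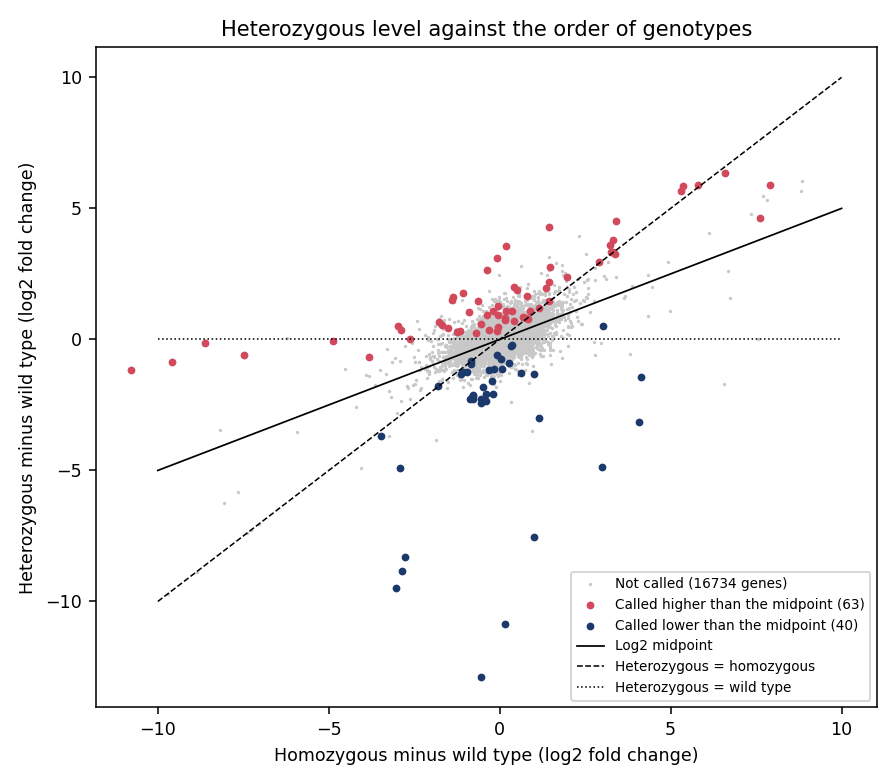
Log2 fold change of heterozygous against wild-type cells (vertical axis) plotted against that of homozygous against wild-type cells (horizontal axis) for the 16837 tested genes, with the 63 genes called higher than the log2 midpoint in red and the 40 called lower in dark blue. The solid line is the midpoint, the dashed line marks equality with homozygous cells and the dotted line equality with wild type. Many red points sit along the dotted or the dashed line, and most dark blue points lie below both. For genes with 0 counts in a genotype the plotted fold changes depend on the fitted prior count.

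The genes furthest below both genotypes had no counts at all in heterozygous cells. ZNF826P, a transcribed zinc finger pseudogene on chromosome 19 (20340269 to 20424969, minus strand, GRCh38), had a level of 38.6, 36.7 and 33.5 CPM in wild-type, 0 CPM in all 3 heterozygous and 28.7, 20.6 and 25.03 CPM in homozygous libraries. It was present in all 6 wild-type and homozygous libraries and had 0 counts in the 3 heterozygous libraries, while the wild-type libraries held 3366 counts and the homozygous ones 1468. Taking 3 counts over the 3 heterozygous libraries as the floor, it was at least 998-fold lower than in wild-type and at least 642-fold lower than in homozygous cells (adjusted p = 4.31e-08 against the midpoint).

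ZNF677, a KRAB zinc finger gene on chromosome 19 (53235381 to 53254898), was 10.2, 8.53 and 7.97 CPM in wild-type, 0 CPM in all 3 heterozygous and 11.8, 8.44 and 9.67 CPM in homozygous libraries. It thus had like levels in wild-type and homozygous cells (log2 0.15 homozygous minus wild type, adjusted p = 0.649) and 0 counts in heterozygous cells, at least 246-fold below wild type and at least 258-fold below homozygous cells (adjusted p = 1.03e-06 against the midpoint). ZNF506, a further zinc finger gene of chromosome 19 (19785839 to 19821751), had 0 heterozygous counts while the wild-type libraries held 80 counts and the homozygous ones 117. Its bounds were 23.7-fold and 51.2-fold lower. KRAB zinc finger proteins bind DNA and recruit a co-repressor, many of them at transposable elements.

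TRIM61, ZNF680 and MAP10 had 0 counts in heterozygous cells too, but were already low in homozygous cells. TRIM61, of the tripartite motif family on chromosome 4, was at 2.65, 3.90 and 3.78 CPM in wild-type, 0 CPM in all 3 heterozygous and 0.334, 0.397 and 0.499 CPM in homozygous libraries, at least 91.6-fold below wild type and at least 11.4-fold below homozygous cells. ZNF680, a zinc finger gene on chromosome 7, was at 1.88, 2.07 and 2.53 CPM in wild-type, 0 CPM in all 3 heterozygous and 0.418, 0.265 and 0.249 CPM in homozygous libraries, at least 57.5-fold and 7.88-fold lower. MAP10, a microtubule-associated protein gene on chromosome 1, was at 1.48, 1.48 and 1.54 CPM in wild-type, 0 CPM in all 3 heterozygous and 0.0836, 0.331 and 0.150 CPM in homozygous libraries, at least 40.6-fold and 6.13-fold lower. The homozygous values of these 3 genes rest on 26, 18 and 14 counts in all. In each the fall from wild type was called in homozygous cells as well (log2 -3.03, -2.85 and -2.76).

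The start regions of TRIM61 and ZNF680 are shown because they are windows of genes with 0 heterozygous counts that lie wholly outside the annotated bounds of the gene. Each runs from 250 to 51 bases before the RefSeq start (GRCh38.p14), 5′ to 3′ on the gene's strand, with every CG dinucleotide, the main site of DNA methylation in human cells, in capitals.
TRIM61, chr4:164977708-164977907, minus strand: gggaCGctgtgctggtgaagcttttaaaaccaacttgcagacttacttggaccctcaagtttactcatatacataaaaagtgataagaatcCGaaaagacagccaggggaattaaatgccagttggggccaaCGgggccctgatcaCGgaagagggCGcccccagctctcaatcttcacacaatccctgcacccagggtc
ZNF680, chr7:64563122-64563321, minus strand: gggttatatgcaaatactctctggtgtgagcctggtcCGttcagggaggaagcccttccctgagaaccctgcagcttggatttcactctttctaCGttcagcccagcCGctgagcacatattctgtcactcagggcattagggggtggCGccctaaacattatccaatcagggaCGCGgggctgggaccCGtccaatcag
TRIM61 has 5 and ZNF680 has 7 CG dinucleotides in 200 bases. Of the 35116 RefSeq windows of that length, 60.2% have at least 5 and 53.1% at least 7, and the median is 8. Among the genes called below both genotypes, 14 of 26 matched a single window, with a median of 6.5. Of these, 21.4% had at least 10 against 45.4% of all windows. Called genes with no window or with several were left out, whereas all windows were counted without that limit. Among those called above both, 7 of 13 matched, with a median of 4 and 42.9% with at least 10. Over all genes called lower, 23 matched, with a median of 7 and 39.1% with at least 10, and over all called higher 32 matched, with a median of 8 and 46.9%. DNA methylation was not measured here.

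LRRC61 and ZBED10P had another order of genotypes, with homozygous cells high, wild-type cells low and heterozygous cells lower still. LRRC61, a leucine-rich repeat gene on chromosome 7 (150322639 to 150338150), was at 0.832, 0.853 and 0.872 CPM in wild-type, 0, 0.0731 and 0 CPM in heterozygous and 6.77, 8.01 and 5.53 CPM in homozygous libraries. ZBED10P (150329789 to 150332721), which lies within the bounds of LRRC61 on the same strand, was at 0.429, 0.164 and 0.498 CPM in wild-type, 0.0651, 0 and 0.0424 CPM in heterozygous and 7.19, 5.66 and 5.53 CPM in homozygous libraries. Heterozygous cells had 2 and 3 counts of these genes in all, wild-type cells 78 and 33, and homozygous cells 434 and 368. Both were called below wild type (adjusted p = 0.000448 and 0.0368) and below homozygous cells (1.22e-06 and 5.68e-06). The genes overlap, so their reads may not be independent. ZNF772, a zinc finger gene near the end of chromosome 19, had the same order at 1.13, 1.02 and 1.16 CPM in wild-type, 0.163, 0.146 and 0.0848 CPM in heterozygous and 2.26, 2.12 and 2.99 CPM in homozygous libraries (log2 -2.99 against wild type and -4.15 against homozygous cells).

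A run of noncoding genes on chromosome 21 fell together. TSPEAR-AS1, TSPEAR-AS2 and LINC02575 lie on the plus strand between 44485577 and 44525952, and the first 2 are annotated as antisense genes of TSPEAR. TSPEAR-AS2 was at 26.7, 32.4 and 30.7 CPM in wild-type, 7.75, 7.05 and 6.53 CPM in heterozygous and 21.1, 26.3 and 30.2 CPM in homozygous libraries. TSPEAR-AS1 was at 26.7, 27.3 and 26.8 CPM in wild-type, 6.19, 6.58 and 6.32 CPM in heterozygous and 21.6, 15.2 and 25.3 CPM in homozygous libraries. LINC02575 was at 88.2, 109 and 114 CPM in wild-type, 21.9, 22.5 and 23.99 CPM in heterozygous and 50.6, 51.4 and 74.1 CPM in homozygous libraries. In all 3 the heterozygous libraries were tight and below every other library. They fell by 1.97 (SE 0.13, adjusted p = 1.16e-05), 1.89 (0.15, 2.10e-05) and 1.78 (0.14, 1.67e-05) on the log2 scale against the midpoint. A further noncoding gene between them, ENSG00000277352, was called lower as well (log2 -1.82, adjusted p = 0.0379) at 1.99 to 3.36 CPM in wild-type, 0.254 to 0.658 CPM in heterozygous and 0.993 to 2.04 CPM in homozygous libraries, with its homozygous difference not called (0.102) and was called in only 2 of the 9 fits that left out 1 library (adjusted p = 0.149 without heterozygous replicate 2). No source used here states if reads were counted by strand, and reads of TSPEAR and of its antisense genes cannot be told apart.

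Zinc finger genes of chromosome 19 with moderate falls were measured at higher counts. ZNF69 was at 16.4, 17.7 and 17.0 CPM in wild-type, 3.26, 3.54 and 3.86 CPM in heterozygous and 10.6, 9.997 and 14.1 CPM in homozygous libraries, a log2 difference of -1.98 (SE 0.14, adjusted p = 1.30e-05) from the midpoint. ZNF737 was at 17.0, 20.2 and 19.1 CPM in wild-type, 3.48, 4.20 and 3.90 CPM in heterozygous and 13.5, 9.004 and 10.4 CPM in homozygous libraries (-1.88, SE 0.15, adjusted p = 2.15e-05). ZNF426 was at 38.4, 40.8 and 38.2 CPM in wild-type, 17.0, 20.1 and 16.1 CPM in heterozygous and 38.0, 30.9 and 35.2 CPM in homozygous libraries (-1.05, SE 0.10, adjusted p = 9.76e-05). No heterozygous library of the 3 genes reached the lowest of the other 6. ZNF69 and ZNF737 also fell in homozygous against wild-type cells (log2 -0.56 and -0.79), while ZNF426 was not called there (-0.18, adjusted p = 0.352).

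Genes with a ZNF symbol made up 10 of the 40 lower and 10 of the 63 higher genes, against 529 of the 16837 tested. Of the 10 lower ones 9 lie on chromosome 19, and of the 10 higher ones 4 do, against 248 of the 529 tested. This grouping was made after the values were seen, and no test of it was run. Many zinc finger genes resemble one another closely, and no source used here states how reads that match several of them were counted, so their levels are uncertain to that extent.

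Protein-coding genes outside these families were few among those below both genotypes. THUMPD3, a tRNA methyltransferase subunit gene on chromosome 3 (9362842 to 9386791), was at 44.3, 46.3 and 44.8 CPM in wild-type, 18.6, 20.8 and 21.9 CPM in heterozygous and 56.1, 44.8 and 41.7 CPM in homozygous libraries. The heterozygous level was less than that of every other library, by 1.18 on the log2 scale against the midpoint (SE 0.10, adjusted p = 5.05e-05), and the other genotypes did not differ by the test (log2 0.07, adjusted p = 0.754). GRP, which encodes gastrin-releasing peptide, was at 7.91, 11.7 and 11.96 CPM in wild-type, 4.75, 4.28 and 5.17 CPM in heterozygous and 7.44, 8.67 and 9.27 CPM in homozygous libraries (log2 -0.999, SE 0.16, adjusted p = 0.00870). Its call was lost without heterozygous replicate 2 (adjusted p = 0.114). The noncoding genes PCAT7 on chromosome 9 and LINC03077 on chromosome X were also below both. PCAT7 was at 5.18, 4.99 and 4.401 CPM in wild-type, 2.05, 1.53 and 2.20 CPM in heterozygous and 11.9, 9.07 and 8.28 CPM in homozygous libraries (log2 -1.83, SE 0.18, adjusted p = 0.000133). LINC03077 was at 4.88, 4.99 and 4.44 CPM in wild-type, 1.04, 0.840 and 0.890 CPM in heterozygous and 3.68, 4.20 and 2.84 CPM in homozygous libraries (-2.15, SE 0.20, adjusted p = 6.69e-05). IRX2, an Iroquois homeobox gene, was at 22.3, 28.9 and 28.9 CPM in wild-type, 17.8, 17.2 and 18.2 CPM in heterozygous and 22.6, 24.7 and 28.5 CPM in homozygous libraries. It was called against the midpoint (log2 -0.55, adjusted p = 0.0445) and wild type (0.0314) but not against homozygous cells (0.0547), and it was called in 3 of the 9 fits that left out 1 library.

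**Figure D2:**
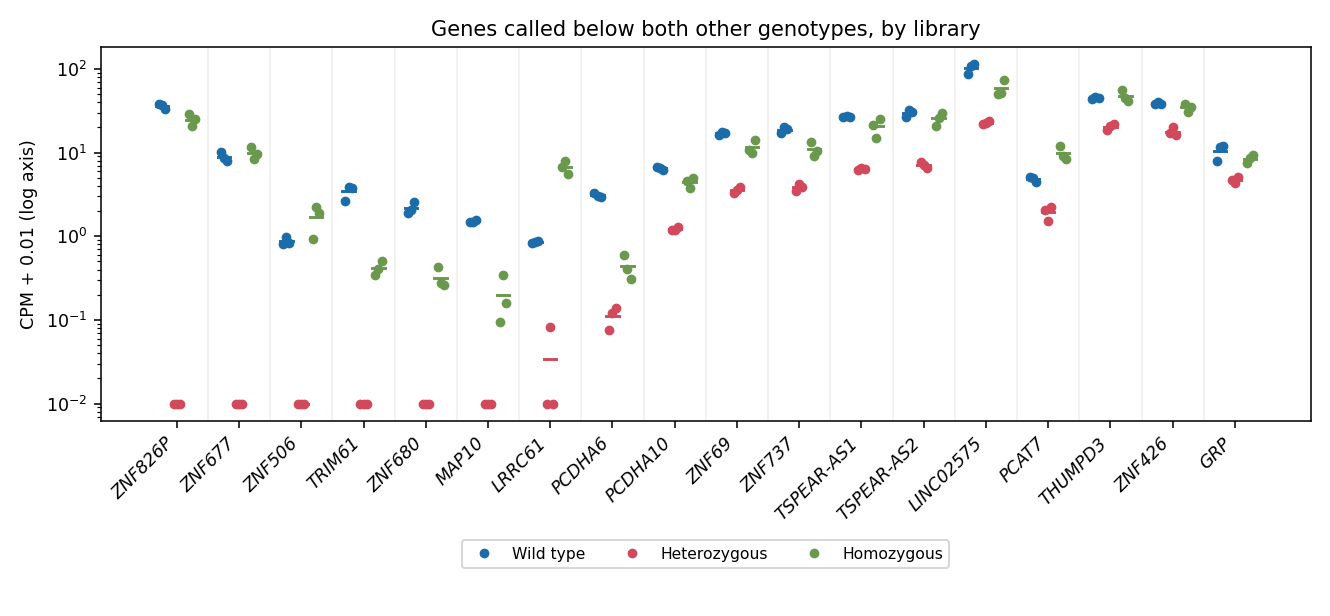
Level in each library of genes called below both other genotypes, as CPM plus 0.01 on a log axis; each point is a library and each bar the mean of 3 libraries. Heterozygous libraries (red) sit at the bottom of every gene's group, and for ZNF826P, ZNF677, ZNF506, TRIM61, ZNF680 and MAP10 they sit at 0 counts.

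Clustered protocadherins, adhesion molecules of chromosome 5 whose isoforms are switched on by choice among many first exons, changed in both directions. Of 31 tested members 2 were called higher and 3 lower, against 0.374% and 0.238% of all tested genes. Their median was -0.07 on the log2 scale against 0.00 over all genes. PCDHA6 was at 3.33, 2.98 and 2.91 CPM in wild-type, 0.0651, 0.110 and 0.127 CPM in heterozygous and 0.585, 0.397 and 0.299 CPM in homozygous libraries. Homozygous cells were thus already low, and heterozygous cells lower still (log2 -4.90 against wild type, adjusted p = 4.98e-06, and -2.00 against homozygous cells, adjusted p = 0.0393). PCDHA10 was at 6.68, 6.49 and 6.23 CPM in wild-type, 1.17, 1.17 and 1.27 CPM in heterozygous and 4.60, 3.77 and 4.94 CPM in homozygous libraries, with the 3 heterozygous libraries below the other 6 (log2 -2.15 against the midpoint, SE 0.16, adjusted p = 1.67e-05). PCDHA11, the next gene of the array, went the other way at 0.912, 0.459 and 0.747 CPM in wild-type, 6.97, 9.28 and 9.66 CPM in heterozygous and 7.02, 5.13 and 7.98 CPM in homozygous libraries. It stood with homozygous cells, differing from wild type (log2 3.59, adjusted p = 6.89e-06) and not called against homozygous cells (0.37, adjusted p = 0.376).

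The windows of PCDHA6 and PCDHA10 are shown, since each variable first exon of the array has a promoter of its own (RefSeq, GRCh38.p14, plus strand, 250 to 51 bases before the start, CG in capitals).
PCDHA6, chr5:140827710-140827909: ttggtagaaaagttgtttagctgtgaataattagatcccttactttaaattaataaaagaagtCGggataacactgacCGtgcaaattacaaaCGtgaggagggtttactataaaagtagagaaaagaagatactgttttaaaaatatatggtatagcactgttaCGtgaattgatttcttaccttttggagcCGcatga
PCDHA10, chr5:140855647-140855846: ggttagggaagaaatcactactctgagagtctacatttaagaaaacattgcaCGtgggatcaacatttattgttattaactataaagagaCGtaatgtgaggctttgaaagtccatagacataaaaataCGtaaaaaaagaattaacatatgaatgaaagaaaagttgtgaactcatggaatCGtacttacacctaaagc
They hold 5 and 4 CG dinucleotides, and 60.2% and 65.2% of all windows hold at least as many. In the gamma array, PCDHGB4 was at 3.11, 3.12 and 3.36 CPM in wild-type, 1.24, 0.877 and 1.82 CPM in heterozygous and 6.10, 3.38 and 5.63 CPM in homozygous libraries and fell below both genotypes (log2 -1.61, SE 0.26, adjusted p = 0.00862). PCDHGB7 was at 5.53, 5.35 and 5.77 CPM in wild-type, 9.90, 13.7 and 8.01 CPM in heterozygous and 4.51, 3.01 and 5.53 CPM in homozygous libraries and rose against the midpoint (1.11, SE 0.19, adjusted p = 0.0151) and against homozygous cells, but not by the test against wild type (adjusted p = 0.0597). Without heterozygous replicate 2 the calls of PCDHGB4 (adjusted p = 0.0954) and PCDHGB7 (0.170) were lost. Members of an array share their last exons, and reads there cannot be assigned to a member.

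Among genes above both genotypes, LINC00836 had the largest contrast of those with a symbol. LINC00836, a noncoding gene on chromosome 10 (25651712 to 25732935), was at 1.80, 1.31 and 2.49 CPM in wild-type, 14.0, 14.0 and 19.7 CPM in heterozygous and 1.67, 0.894 and 2.89 CPM in homozygous libraries. All heterozygous libraries were several-fold above the other 6, by 3.13 on the log2 scale (SE 0.26, adjusted p = 2.87e-05), while wild-type and homozygous cells did not differ by the test (log2 -0.06, adjusted p = 0.939). ECHDC3, a mitochondrial gene of the enoyl-CoA hydratase family on the same chromosome (11742366 to 11764070), was at 0.617, 0.295 and 0.166 CPM in wild-type, 9.90, 9.79 and 7.33 CPM in heterozygous and 5.10, 3.84 and 3.54 CPM in homozygous libraries. It was nearly absent in wild type, and heterozygous cells exceeded homozygous cells as well (log2 1.14, SE 0.25, adjusted p = 0.0330). The contrast was 2.84 (SE 0.22, adjusted p = 2.10e-05).

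Several membrane and secreted proteins were in the same class. SHISA3, which holds back the maturation of Wnt and FGF receptors, was at 2.39, 2.13 and 1.74 CPM in wild-type, 6.35, 6.17 and 7.50 CPM in heterozygous and 4.18, 4.14 and 2.79 CPM in homozygous libraries (log2 1.26, SE 0.16, adjusted p = 0.00162). ITLN2, a secreted lectin, was at 13.0, 11.9 and 12.7 CPM in wild-type, 29.4, 27.6 and 23.6 CPM in heterozygous and 14.2, 15.96 and 12.5 CPM in homozygous libraries (1.01, SE 0.10, adjusted p = 0.000189). HLA-DQB1, a beta chain of the MHC class II proteins that present peptides to T cells, was at 40.9, 34.8 and 35.9 CPM in wild-type, 86.0, 80.8 and 72.0 CPM in heterozygous and 50.6, 50.0 and 42.3 CPM in homozygous libraries (0.92, SE 0.09, adjusted p = 9.76e-05). The values in brackets are against the midpoint. Against homozygous cells the adjusted p was 0.0426 for SHISA3, 0.00165 for ITLN2 and 0.002175 for HLA-DQB1, and all 3 were also called against wild type. These 3 genes had no overlap between heterozygous and other libraries. HLA-DQB1 has near-identical relatives, so its level is uncertain to the extent that reads were shared.

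PIEZO2, a channel opened by mechanical force, was at 21.1, 15.8 and 16.9 CPM in wild-type, 27.3, 33.5 and 33.0 CPM in heterozygous and 22.7, 19.4 and 18.2 CPM in homozygous libraries (log2 0.72, SE 0.11, adjusted p = 0.00792). SHISA9, an accessory protein of glutamate receptors, was at 23.8, 21.4 and 22.2 CPM in wild-type, 29.5, 32.3 and 31.8 CPM in heterozygous and 21.7, 21.9 and 21.6 CPM in homozygous libraries (0.50, SE 0.08, adjusted p = 0.00644). ANXA1, a calcium-dependent phospholipid-binding protein, was at 0.429, 0.164 and 0.291 CPM in wild-type, 1.99, 2.52 and 1.19 CPM in heterozygous and 0.251, 0.397 and 0 CPM in homozygous libraries (2.83, SE 0.45, adjusted p = 0.00800). Heterozygous libraries exceeded all others in each, though ANXA1 rests on few counts, with none in homozygous replicate 3. Without heterozygous replicate 2 all 3 calls were lost (adjusted p = 0.0968, 0.0854 and 0.102).

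POLR3G, a subunit of RNA polymerase III that is high in pluripotent cells, was at 5.98, 5.45 and 4.90 CPM in wild-type, 10.7, 11.6 and 9.20 CPM in heterozygous and 6.94, 5.69 and 3.49 CPM in homozygous libraries. Every heterozygous library was above the other 6, and the contrast was 0.97 (SE 0.17, adjusted p = 0.0208). Without heterozygous replicate 2 it was not called (adjusted p = 0.187), and it was called in 5 of the 9 fits that left out 1 library. TERF1, which binds telomeric repeats, was called at 61.7, 56.8 and 54.8 CPM in wild-type, 71.3, 73.8 and 73.2 CPM in heterozygous and 58.3, 53.4 and 52.6 CPM in homozygous libraries (log2 0.37, SE 0.07, adjusted p = 0.0293), against homozygous cells (0.0209) but not against wild type (0.0622), and was called in only 3 of the 9 fits that left out 1 library (0.206 without heterozygous replicate 2). Beside these genes, the summed level of the 6 stem cell markers was 499, 475 and 401 CPM in the heterozygous replicates against 286 to 391 CPM in the other 6 libraries. That sum was mostly POU5F1 and DPPA4. The part of undifferentiated cells in the heterozygous values was not tested.

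Other higher genes had no overlap between libraries and differed by the test from 1 genotype alone. MOBP, which encodes a myelin protein, was at 38.3, 29.8 and 27.1 CPM in wild-type, 46.5, 44.4 and 48.9 CPM in heterozygous and 11.7, 9.997 and 8.08 CPM in homozygous libraries (log2 1.40, SE 0.12, adjusted p = 4.09e-05). TRIM4, a ubiquitin ligase gene, was at 5.18, 6.23 and 5.48 CPM in wild-type, 6.38, 7.64 and 8.69 CPM in heterozygous and 2.006, 2.45 and 1.40 CPM in homozygous libraries (1.18, SE 0.17, adjusted p = 0.00331). F2RL1, a protease-activated receptor, was at 9.76, 7.48 and 6.60 CPM in wild-type, 10.8, 11.9 and 13.4 CPM in heterozygous and 6.60, 5.69 and 4.34 CPM in homozygous libraries (0.86, SE 0.15, adjusted p = 0.0208). All 3, and the zinc finger gene ZNF273 (0.91, SE 0.15, adjusted p = 0.00859) of chromosome 7, were called against homozygous cells and not against wild type. CFLAR, which blocks death receptor signalling, was instead called against wild type alone, at 123, 131 and 124 CPM in wild-type, 194, 202 and 214 CPM in heterozygous and 172, 155 and 179 CPM in homozygous libraries (0.48, SE 0.07, adjusted p = 0.00305). F2RL1 was not called without heterozygous replicate 2 (0.130).

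**Figure D3:**
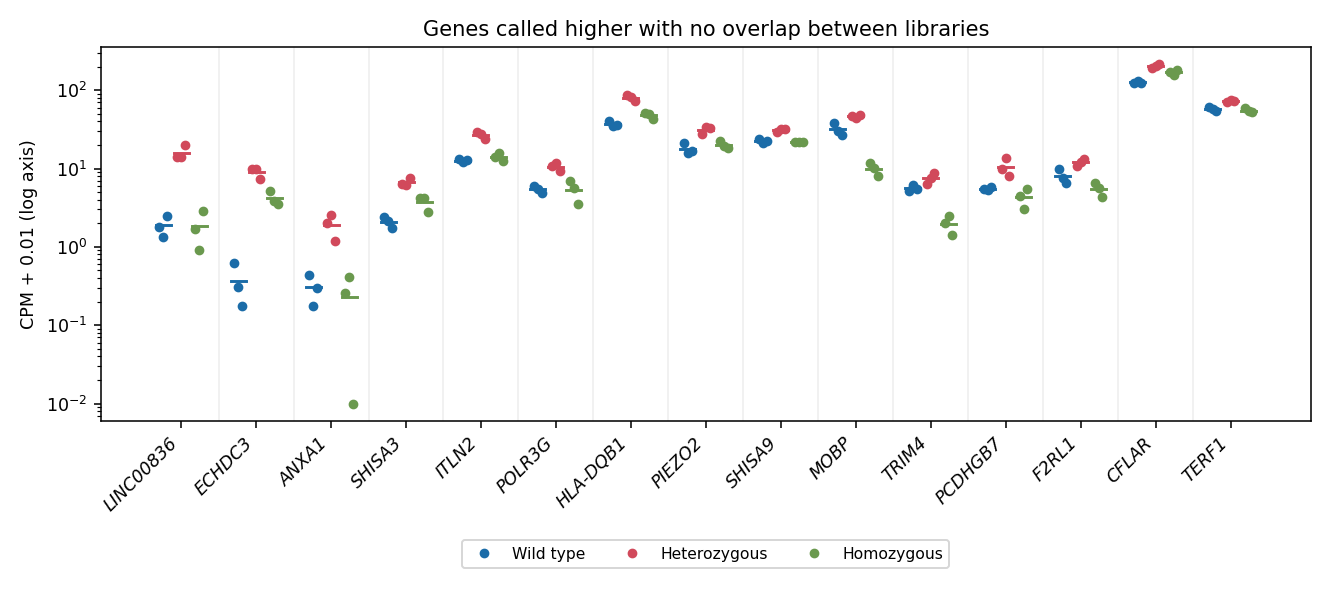
Level in each library of genes called higher than the midpoint whose heterozygous libraries (red) all lie above the other 6, as CPM plus 0.01 on a log axis; each point is a library and each bar the mean of 3 libraries. LINC00836 and ANXA1 stand several-fold above both genotypes, while ECHDC3 is low in wild type alone.

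A large class of called genes had a heterozygous level that was not called different from 1 other genotype. Heterozygous cells stood near wild type for MAP3K13, a kinase upstream of JNK signalling, at 13.2, 11.5 and 12.7 CPM in wild-type, 10.9, 11.03 and 13.7 CPM in heterozygous and 0.251, 0.331 and 0.648 CPM in homozygous libraries. Its homozygous level was far lower (log2 4.81 heterozygous minus homozygous, SE 0.24, adjusted p = 4.30e-07), and the difference from wild type did not pass the test (-0.07, SE 0.16, adjusted p = 0.911). ZNF562, a zinc finger gene of chromosome 19, was at 13.9, 15.6 and 15.5 CPM in wild-type, 9.80, 9.90 and 10.3 CPM in heterozygous and 0, 0.166 and 0 CPM in homozygous libraries, nearly off in homozygous cells. Its heterozygous libraries were all below wild type, a difference that was not called (log2 -0.59, adjusted p = 0.148). OLIG2, a neural basic helix-loop-helix factor, was at 1.96, 1.61 and 2.08 CPM in wild-type, 1.63, 1.75 and 1.78 CPM in heterozygous and 0 CPM in all 3 homozygous libraries.

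Heterozygous cells stood near homozygous cells for other genes. ZNF595 on chromosome 4 was at 0.590, 0.820 and 0.664 CPM in wild-type, 5.14, 5.59 and 5.59 CPM in heterozygous and 5.35, 4.83 and 5.33 CPM in homozygous libraries (log2 0.08 against homozygous cells, SE 0.16, adjusted p = 0.831). On chromosome X, BEX5 was at 0.483, 0.853 and 0.872 CPM in wild-type, 6.64, 6.76 and 8.35 CPM in heterozygous and 6.44, 8.64 and 5.38 CPM in homozygous libraries. RBMX2, a splicing factor gene, was at 23.6, 24.04 and 24.1 CPM in wild-type, 54.6, 49.0 and 61.3 CPM in heterozygous and 52.0, 59.2 and 48.5 CPM in homozygous libraries. PNPLA4, a phospholipase gene of the same chromosome, went down at 15.7, 13.8 and 14.9 CPM in wild-type, 1.30, 0.987 and 1.10 CPM in heterozygous and 0.669, 1.75 and 1.30 CPM in homozygous libraries. The more abundant BEX3 was also called lower than the midpoint (log2 -0.39, SE 0.08, adjusted p = 0.0469), its level being 1014, 998 and 998.9 CPM in wild-type, 585, 531 and 605 CPM in heterozygous and 578, 622 and 499 CPM in homozygous libraries. NAT8L, which makes N-acetylaspartate, was at 21.8, 20.0 and 23 CPM in wild-type, 6.19, 7.01 and 5.64 CPM in heterozygous and 5.52, 6.82 and 6.18 CPM in homozygous libraries. For each of these 6 genes the difference from wild type was called and that from homozygous cells was not (adjusted p = 0.831, 0.885, 0.850, 0.664, 0.934 and 0.972). BEX3 was called in 2 of the 9 fits that left out 1 library.

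For some genes the scale decided the sign. ZNF626, a zinc finger gene of chromosome 19 (20620061 to 20661596), was at 8.13, 9.22 and 7.81 CPM in wild-type, 2.995, 3.76 and 4.37 CPM in heterozygous and 0 CPM in all 3 homozygous libraries, so that heterozygous cells were below wild type (log2 -1.18, SE 0.18, adjusted p = 0.00817) and above homozygous cells, which had 0 counts. It was called above the log2 midpoint (adjusted p = 0.000319), while its mean was below the arithmetic midpoint (log2 ratio -0.18). NECTIN3-AS1, annotated antisense to NECTIN3, was at 0.134, 0.262 and 0.374 CPM in wild-type, 6.22, 6.14 and 6.02 CPM in heterozygous and 45.7, 47.5 and 51.3 CPM in homozygous libraries, in order of the genotypes, and likewise called above the log2 midpoint (0.83, SE 0.16, adjusted p = 0.0319) and below the arithmetic one (-1.98). NECTIN3-AS1 was called in 3 of the 9 fits that left out 1 library. The sign turned for 3 of the 63 higher genes, these 2 and ENSG00000289456, and for 0 of the 40 lower genes. FOXA1, a pioneer factor of endoderm, was at 26.3, 16.9 and 18.8 CPM in wild-type, 10.9, 13.3 and 10.7 CPM in heterozygous and 2.26, 2.78 and 2.99 CPM in homozygous libraries, above the log2 midpoint by 0.63 (SE 0.15, adjusted p = 0.116, not called) and at the arithmetic midpoint within 0.01 (log2 -0.00195).

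PRRT1B was the reverse case among the lower genes, with heterozygous cells near wild type and only homozygous cells high. Its level was 0.778, 0.754 and 1.04 CPM in wild-type, 1.14, 1.39 and 1.10 CPM in heterozygous and 6.52, 6.82 and 7.23 CPM in homozygous libraries. The heterozygous minus homozygous difference was -2.50 on the log2 scale (SE 0.20, adjusted p = 1.96e-05), and the midpoint call (log2 -0.99, adjusted p = 0.0303) held in 1 of the 9 fits that left out 1 library.

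Most genes that differed between homozygous and wild-type cells kept the order. Of 1288 such genes (7.65% of those tested), the heterozygous level lay between the others for 1106 (85.9%), beyond wild type for 109 and beyond homozygous cells for 73. The median position, with wild type at 0 and homozygous at 1 on the log2 scale, was 0.446, and the quartiles were 0.231 and 0.669. For the 586 genes higher in homozygous cells the median position was 0.475, and for the 702 lower ones 0.42. Of the 1288 genes, 63 (4.89%) were also called against the midpoint. Among all 16837 tested genes the heterozygous level lay between the others for 6728. Choosing genes by a difference between homozygous and wild-type cells itself makes a level between them more likely. The same libraries enter both axes of the position, so the position is given as a description.

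**Figure D4:**
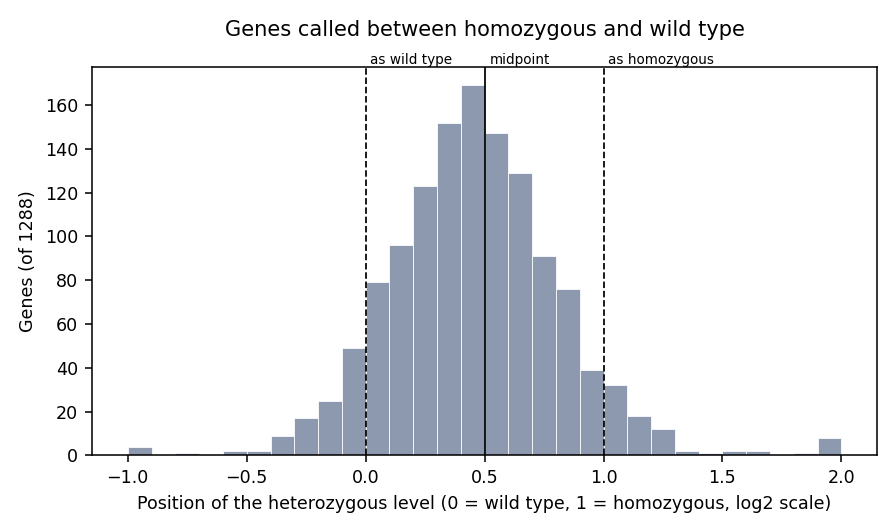
Histogram of the position of the heterozygous level, where 0 is the wild-type and 1 the homozygous level on the log2 scale, for the 1288 genes called between homozygous and wild-type cells; the vertical axis is the number of genes per bin of 0.1. The bulk lies between 0 and 1 with a median of 0.446; 4 genes below -1 and 8 above 2 are drawn in the end bins.

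No regulator on the definitive endoderm list was called. The median of its 28 tested genes was 0.01 on the log2 scale, 9 had an unadjusted p below 0.05, and DESeq2 called 1 of them. Over all tested genes 0.612% were called and 12.1% had an unadjusted p below 0.05, so a count of 0 called in a list of this size is near the background and nothing is read from it. SOX17, a driver of endoderm fate, was at 702, 716 and 732 CPM in wild-type, 667, 627 and 562 CPM in heterozygous and 584, 642 and 663 CPM in homozygous libraries (log2 -0.12, adjusted p = 0.520). FOXA2, a pioneer factor, had a contrast of 0.02 (adjusted p = 0.937), CXCR4, a chemokine receptor, -0.05 (0.813), CER1 0.08 (0.740), GATA6 -0.10 (0.568) and EOMES, a T-box factor upstream of endoderm, 0.00 (0.987). Lists of the Nodal and Activin, BMP, Wnt, FGF and Notch pathways also had 0 called members of 20, 21, 32, 22 and 17 tested, medians of -0.05, -0.08, -0.01, -0.03 and 0.03, and 0, 5, 6, 7 and 7 genes with an unadjusted p below 0.05. DESeq2 called 1 Wnt gene and none in the other 4 lists. These counts of 0 called are also near the background share.

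The pluripotency factors POU5F1, SOX2 and NANOG had their highest values in heterozygous replicates 1 and 2, without passing the test. POU5F1, which has retrocopies that can take some of its reads, was at 95.3, 56.1 and 57.4 CPM in wild-type, 193, 168 and 116 CPM in heterozygous and 122, 114 and 33.5 CPM in homozygous libraries (log2 1.01, SE 0.33, adjusted p = 0.276). SOX2 was at 7.11, 4.07 and 3.36 CPM in wild-type, 19.1, 15.9 and 5.59 CPM in heterozygous and 5.93, 6.39 and 0.848 CPM in homozygous libraries (1.55, SE 0.46, adjusted p = 0.233). NANOG was at 12.4, 9.12 and 9.63 CPM in wild-type, 16.6, 14.7 and 8.44 CPM in heterozygous and 5.27, 5.96 and 1.45 CPM in homozygous libraries (0.998, SE 0.30, adjusted p = 0.225). Heterozygous replicate 3 overlapped the other genotypes in all 3 genes. FOXD3 followed the same libraries at 2.55, 1.21 and 1.66 CPM in wild-type, 6.25, 5.96 and 1.02 CPM in heterozygous and 2.42, 2.38 and 1.596 CPM in homozygous libraries (adjusted p = 0.306). DPPA4 (168.8, 171 and 170.9 CPM) and ZFP42 (81.49, 81.85 and 83.25 CPM) had like levels in the 3 heterozygous libraries, above the other 6. PRDM14 overlapped between genotypes, at 19.76, 23.09 and 16.78 CPM in heterozygous and 19.47, 17.11 and 22.89 CPM in homozygous libraries. Of 26 tested pluripotency genes, 19 had a contrast above 0, the median was 0.12, and 10 had an unadjusted p below 0.05, all upwards. Over all tested genes 51.1% were above 0, the median was 0.00 and 12.1% had an unadjusted p below 0.05. None of the 26 was called by edgeR or DESeq2, and 2 were called higher with the replicate number as a block.

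Genes of the G2/M list were not called by edgeR's test (0 of 31). Of these, 29 had a contrast above 0 and the median was 0.18 on the log2 scale, against 0.00 and 51.1% over all genes. An unadjusted p below 0.05 was found for 16, all of them above 0, against 12.1% of all tested genes, and DESeq2 called 1. HMMR, a spindle protein, was at 63.6, 60.6 and 54.9 CPM in wild-type, 75.3, 78.0 and 79.4 CPM in heterozygous and 71.4, 52.1 and 55.3 CPM in homozygous libraries (log2 0.38, SE 0.10, adjusted p = 0.134). CCNA2, a cyclin of S phase and mitosis, was at 104, 103 and 95.0 CPM in wild-type, 117, 119 and 125 CPM in heterozygous and 99.96, 94.2 and 107 CPM in homozygous libraries (0.26, SE 0.07, adjusted p = 0.169). Both had no overlap between heterozygous and other libraries, as had 5 of the 31 genes in all, each of them above. Over all tested genes the 3 heterozygous libraries lay above the other 6 for 2.19%. The mean log2 level of the list relative to wild type was 0.27, 0.33 and 0.11 in the heterozygous and 0.27, 0.14 and 0.06 in the homozygous replicates, so these genotypes overlapped. The pluripotency list, on the same scale, was at 0.30, 0.31 and 0.05 in the heterozygous replicates, so both lists were lower in heterozygous replicate 3 than in heterozygous replicates 1 and 2, and the part of undifferentiated cells in the mitotic values was not tested. The G1/S list had a median of 0.05 with 0 of 32 called (3 at an unadjusted p below 0.05, and 1 by DESeq2). Among 15 tested cell cycle inhibitors 0 were called (4 at an unadjusted p below 0.05, and 1 by DESeq2), CDKN2B being nearest (log2 -0.46, SE 0.11, adjusted p = 0.0907).

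No gene of the lists of other lineages was called by edgeR's test. HNF4A, a nuclear receptor that drives hepatocyte genes, was at 24.9, 21.9 and 21.3 CPM in wild-type, 20.9, 19.8 and 24.9 CPM in heterozygous and 41.7, 38.2 and 36.95 CPM in homozygous libraries, so that heterozygous cells stood close to wild type (log2 -0.45, SE 0.10, adjusted p = 0.0704 against the midpoint). NKX6-1, a pancreatic factor, was at 1.82, 2.75 and 2.66 CPM in wild-type, 0, 0.0365 and 0.212 CPM in heterozygous and 0.0836, 0.265 and 0 CPM in homozygous libraries and stood with homozygous cells (adjusted p = 0.191). The medians were -0.41 over 11 genes of the foregut, liver and pancreas list, -0.52 over 4 of trophoblast and amnion, -0.01 over 11 of mesoderm and 0.15 over 14 of neuroectoderm. In these lists 4, 3, 1 and 3 genes had an unadjusted p below 0.05, and DESeq2 called 2, 0, 0 and 0. The share at an unadjusted p below 0.05 over all tested genes was 12.1%, and 0.612% were called by edgeR's test. LOX, a collagen cross-linking enzyme, was the extracellular matrix gene nearest the threshold, at 15.3, 9.18 and 8.35 CPM in wild-type, 6.67, 7.05 and 6.74 CPM in heterozygous and 1.09, 1.39 and 1.35 CPM in homozygous libraries (log2 0.85, SE 0.19, adjusted p = 0.0899), and 0 of 36 genes of that list were called (11 at an unadjusted p below 0.05, and 1 by DESeq2).

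A called gene was held by 3 of the 37 lists. Beside the protocadherins these were axon guidance, with EFNA5, an ephrin ligand, lower among 41 tested (log2 -0.42, SE 0.08, adjusted p = 0.0469), and genes of recurrent stem cell amplicons and culture variation, with ZNF562 and TRIM4 higher among 18. EFNA5 was at 74.6, 85.8 and 85.4 CPM in wild-type, 72.7, 70.9 and 62.6 CPM in heterozygous and 93.0, 106 and 109 CPM in homozygous libraries and was called in 2 of the 9 fits that left out 1 library. CHD remodellers had 0 called of 10 (median 0.07), BAF subunits 0 of 24 (0.01), Polycomb and histone methylation genes 0 of 30 (0.01) and the DNA methylation and KRAB co-repressor list 0 of 18 (0.03). In these 4 lists 1, 3, 8 and 2 genes had an unadjusted p below 0.05, and DESeq2 called none. At a background of 0.612% called, nothing is read from these counts of 0, and the share at an unadjusted p below 0.05 over all tested genes was 12.1%.

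**Figure D5:**
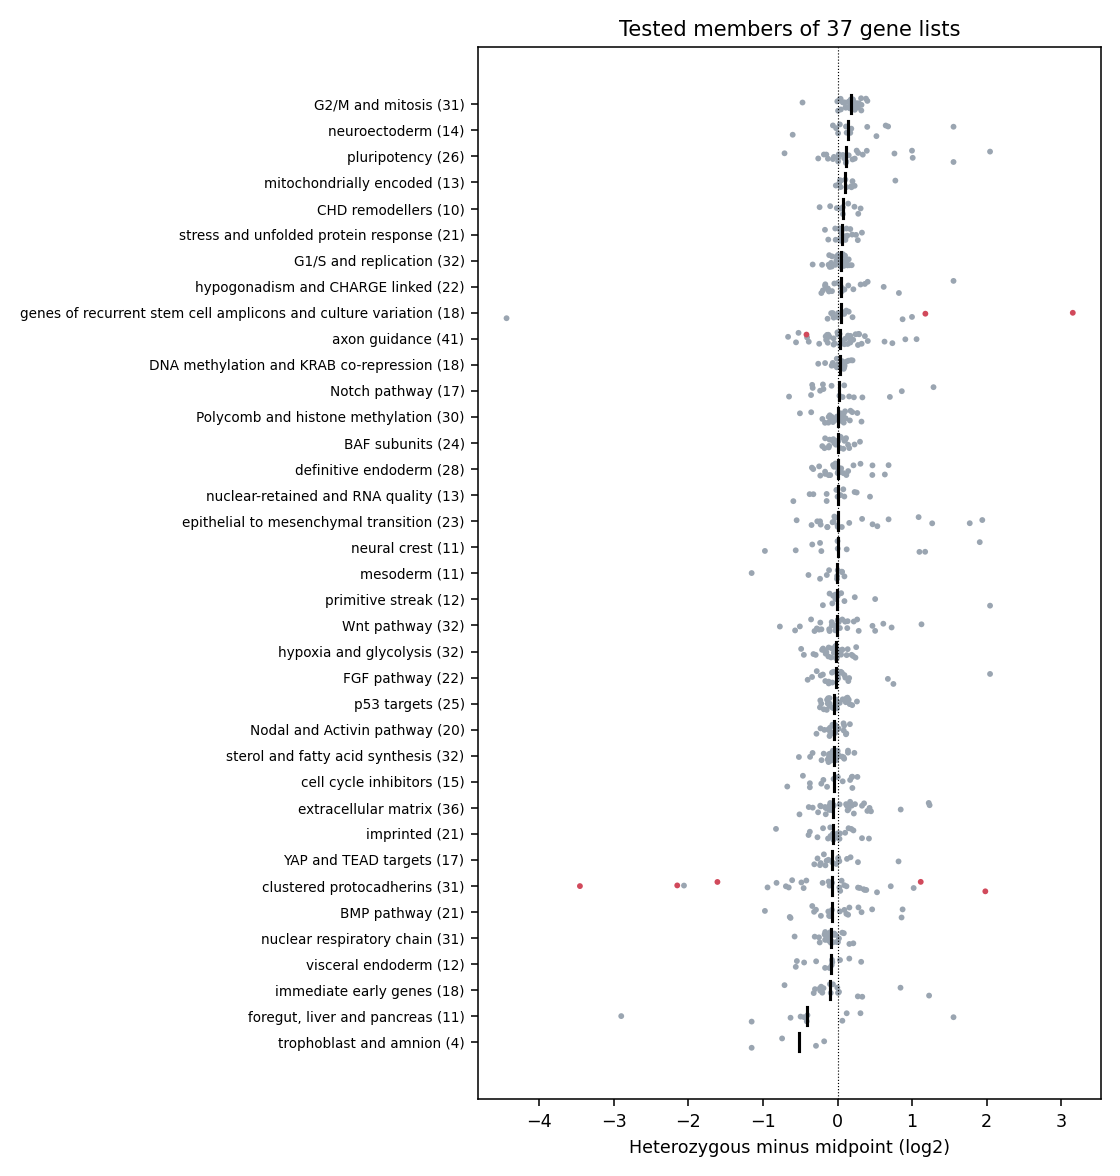
Heterozygous minus midpoint log2 difference of each tested member (points) of 37 gene lists, with the number tested in brackets, called members in red and list medians as vertical bars; the dotted line is the median of all tested genes. Medians lie near 0 for most lists, the G2/M list is at the top with 0.18 and the trophoblast and amnion list at the bottom with -0.52 over 4 genes, and red points occur in 3 lists.

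Between 20077994 and 20424969 on chromosome 19, ZNF90, 3 unnamed transcripts and ZNF826P were all called lower than the midpoint. The 3 transcripts and ZNF826P were called below both genotypes, but ZNF90 was not. For ZNF90 the difference from homozygous cells was not called (log2 -0.17, adjusted p = 0.376). Loss of both copies also went with a lower ZNF90 level than wild type (log2 -1.08, adjusted p = 2.46e-05). Some annotations of this run overlap, so they can share reads. Neighbours could also differ in direction: ZNF737 was lower and the adjacent ZNF626 higher, and ZNF506 lower with ZNF253 higher (log2 1.34, SE 0.20, adjusted p = 0.00460) at 7.08, 7.41 and 6.10 CPM in wild-type, 5.44, 6.17 and 9.49 CPM in heterozygous and 1.42, 1.19 and 0.798 CPM in homozygous libraries. Chromosome 19 held 12 of the 40 lower and 6 of the 63 higher genes, with 1177 of the tested genes. Chromosome medians over all tested genes ranged from -0.07 (chromosome 22) to 0.09 (chromosome 4).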

How the data were processed

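Whole-number counts of reads for each Ensembl gene were deposited, unnormalized, with a column for each library. Per the submitters' processing notes, the build was hg38 and the tools were HISAT2, HTSeq, SAMtools, Trimmomatic and FastQC, with no versions or roles. No source used here states the annotation release, the strand setting or the treatment of shared reads. Of 26240 genes, 264 have 0 counts throughout, 21256 have a symbol and 25209 have coordinates in GENCODE 29 on GRCh38. In R 4.3.3 with edgeR 4.0.16, filterByExpr by genotype left 16837 genes and removed 9403. A robust quasi-likelihood model with genotype as the sole factor was fitted to all 9 libraries with TMM factors of 0.973 to 1.01. The biological coefficient of variation shared by all genes was 0.121. Two-sided tests were used. SE was taken as the size of the log2 difference divided by the square root of the F statistic of its quasi-likelihood test. SD and SE cover these libraries only, and the floor of 3 counts covers counting error only.

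Total counts were 11854173 to 37519729 per library, so genes near 0 are less certain in homozygous replicate 1. Chi-square values per degree of freedom between replicates of a genotype were 2.66 to 33.6, and no pair was treated as 1 library. The members, the 37 lists and the rule for named genes were chosen with earlier results of these data known. The rule takes CHD7; called genes of at least 5 CPM with no overlap between libraries, up to 12 per direction by size of contrast; called genes between the other genotypes, up to 4 per direction; 10 regulators of pluripotency and endoderm; and in each list the 4 called members with the lowest p. Pseudogenes, symbols of clones, ribosomal and sex-linked dosage genes and rows without a symbol were left out. A gene that the rule names is not reported here. ZNF826P, ZNF506, ZNF680, TRIM61, MAP10, ZNF772, LINC03077, IRX2, GRP, ZNF426, ANXA1, SHISA9, CFLAR, TERF1, OLIG2, BEX5, PNPLA4, RBMX2, ZNF595, NECTIN3-AS1, ZNF253, ZNF90, HMMR, CCNA2, FOXD3, HNF4A, NKX6-1, CDKN2B, LOX and the unnamed transcripts were named after their values were seen. Promoter windows are RefSeq sequences on GRCh38.p14, cut to end 51 bases before the start. Alternatives were 2 other scalings, 2 other filters, DESeq2 1.42.0, limma-voom (limma 3.58.1), a 1.5-fold departure in place of 0, a block for the replicate number, the arithmetic midpoint, and leaving out each library.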

Additional observations from a re-analysis of the deposited data

How the results depend on the processing

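No called gene changed sign under any alternative fit, while 3 of the 63 higher genes fell below the midpoint when it was taken as the arithmetic mean (60 above and 43 below). DESeq2, which tested 25976 genes, called 241 (136 higher and 105 lower), 28 above both genotypes, and 68 and 63 with heterozygous libraries above or below the other 6. Without a filter on low counts 51 called genes had heterozygous libraries above the others. Against a 1.5-fold departure 53 genes were called (28 higher and 25 lower), 2 above and 17 below both, and 13 with libraries above. Leaving out 1 library gave 60 to 136 called genes, 33 to 94 higher and 27 to 51 lower, 5 to 16 above and 18 to 27 below both, and 15 to 61 with libraries above and 22 to 41 below. The share called higher was 61.2%, and 56.4% with DESeq2, 52.8% against a 1.5-fold departure and 69.1% without wild-type replicate 1. DESeq2 kept 101 of the 103 genes and limma-voom 96. The cause of these differences was not tested, apart from the larger departure asked for and the fewer libraries. The labels do not state if replicate numbers pair the samples. Deviations of same-numbered libraries correlated at -0.19 to 0.24 between genotypes, and those of other pairs at -0.43 to 0.36. With 3 libraries per genotype these values cannot decide if the samples were paired. With the replicate number as a block 165 genes were called (70.3% higher), 116 higher, 32 above both and 52 with libraries above the others, and 100 of the 103 genes were kept. Depth limits genes near 0, where homozygous replicate 1 holds the fewest counts.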

Other observations

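Of 13 mitochondrially encoded genes tested, 12 had a contrast above 0, with a median of 0.10 on the log2 scale, while of 31 nuclear genes of the respiratory chain 6 did, with a median of -0.09. Relative to wild type, the mean log2 levels in the heterozygous replicates were 0.04, -0.13 and 0.25 for the first list and 0.11, -0.02 and -0.18 for the other, so neither kept its direction in all 3. None of either list was called by edgeR's test (2 and 1 had an unadjusted p below 0.05) or by DESeq2. Sterol and fatty acid synthesis genes had 9 of 32 above 0 and a median of -0.05, and 17 of 21 genes of stress and the unfolded protein response were above 0 with a median of 0.06. None of these was called by either tool (4 and 2 had an unadjusted p below 0.05). Over all tested genes 51.1% had a contrast above 0, 12.1% had an unadjusted p below 0.05 and 0.612% were called by edgeR's test.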
